A study of Mus musculus with 18 samples.

Results

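The genes described here are 10 that microglia, the resident macrophages of the brain, are known for: Trem2, Tyrobp, Cd68, Laptm5, Aif1, Csf1r, Cx3cr1, Cd52, Cyba and Nckap1l. They were taken by symbol, as every probe set on the array with exactly 1 of these symbols, which gave 19 of the 34945 probe sets with a single symbol and 10 of 18193 genes. Cerebellar RNA of C57BL/6 mice was measured on 18 Affymetrix arrays, 1 array per sample. The study was of spinocerebellar ataxia type 6, a disease caused by an expanded glutamine tract in the Cav2.1 calcium channel encoded by Cacna1a. The 6 groups of 3 arrays were homozygous MPI 118Q/118Q knock-in mice, homozygous Sca6 CtmKO/CtmKO mice, homozygous MPI 11Q/11Q knock-in mice, and wild-type littermates of each of these lines. Mice of the 118Q and Ctm lines were 6 weeks old, and an age for the 11Q line is not given in the sources used here. The labels name no Cre or transgene promoter in any group. They call the replicates separate samples of a group without saying more, so p values measure the spread between these samples.

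Trem2 is a receptor on the surface of microglia that senses lipids and lipoproteins. It has no signalling tail of its own and passes its signal to Tyrobp, also called DAP12, an adaptor that recruits the kinase Syk. Csf1r and Cx3cr1 are 2 other receptors of these cells, for the growth factors Csf1 and Il34 that keep microglia alive and for the neuronal chemokine Cx3cl1. The other 6 genes encode the lysosomal membrane proteins Cd68 and Laptm5, the actin-binding protein Aif1 (Iba1), the small surface glycoprotein Cd52, the NADPH oxidase subunit Cyba and the actin-regulating WAVE complex subunit Nckap1l, most of them also made by other macrophages or leukocytes.

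The RefSeq promoter table of build GRCm38.p6 holds 6 of the 10 genes (Trem2, Cd68, Laptm5, Aif1, Cx3cr1 and Cyba). Sequence is shown for the 3 that rose together in the 118Q line and whose window there ends at the outer boundary of the gene in RefSeq; the windows of Laptm5 and Aif1 reach inside that boundary. Each is the 250 bases before the gene's start, read 5′ to 3′ on the gene's strand. Capitals mark GAGGAA and GGAAGT, short motifs with the GGAA core that the myeloid factor PU.1 and other Ets factors bind, searched on both strands (GAGGAA on the opposite strand reads TTCCTC here). The 2 motifs can overlap.
Trem2 (chr17:48346151-48346400, plus strand): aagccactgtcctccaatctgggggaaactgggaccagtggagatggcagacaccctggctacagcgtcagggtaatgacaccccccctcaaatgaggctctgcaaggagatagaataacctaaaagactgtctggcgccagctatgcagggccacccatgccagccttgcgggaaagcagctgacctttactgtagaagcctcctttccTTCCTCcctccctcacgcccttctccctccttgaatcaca
Cd68 (chr11:69666171-69666420, minus strand): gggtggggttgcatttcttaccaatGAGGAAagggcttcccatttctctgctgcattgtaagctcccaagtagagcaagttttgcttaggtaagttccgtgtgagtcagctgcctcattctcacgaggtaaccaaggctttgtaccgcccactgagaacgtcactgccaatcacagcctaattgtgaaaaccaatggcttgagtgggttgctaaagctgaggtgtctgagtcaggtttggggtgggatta
Cyba (chr8:122432941-122433190, minus strand): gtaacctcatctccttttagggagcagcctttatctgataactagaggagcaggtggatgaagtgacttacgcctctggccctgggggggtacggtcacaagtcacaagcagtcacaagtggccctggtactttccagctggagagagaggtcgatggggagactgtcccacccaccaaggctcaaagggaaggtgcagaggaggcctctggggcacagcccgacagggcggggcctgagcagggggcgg
GAGGAA stood on the opposite strand 40 to 35 bases before the start of Trem2 and on the gene's strand 225 to 220 bases before the start of Cd68. The window of Cyba held neither motif. Of all 32851 promoter windows of this length, 23.3% held GAGGAA, 19.7% GGAAGT and 36.7% at least 1 of them. These matches describe the letters and are no evidence of binding.

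Values are log2 expression values as deposited, on which a difference of 1 is a doubling, and the zero point of the scale is not given. Array medians lay between 2.38 and 2.55. Granule cell genes were bright (Gabra6 at 10.4 on average), as were Purkinje cell genes (Pcp2 at 10.6). Among resident microglia markers P2ry12 and Tmem119, at 3.16 and 2.92, lay above the array median on all 18 arrays. Others were dimmer: Gpr34, Itgam, Irf8 and Ptprc lay above it on 0 arrays, Sall1 and P2ry13 on 1 each, Slc2a5 on 2 and Siglech on 16. The remaining resident markers measured lay above it on all 18. In bulk tissue, more cells of a type and more RNA per cell cannot be told apart. RNA quality was read from how far the 3′ probe sets of Gapdh and beta-actin stood above the 5′ ones, and this log2 excess was 0.415 to 0.473 on the 118Q knock-in arrays and 0.496 to 0.613 on their wild types. Ctm wild-type arrays 2 and 3 stood apart from the other wild types: 295 and 341 genes lay over 1 away from the average of the 6 wild types outside their line, against 40 to 154 on the other 7 wild-type arrays. Choroid plexus markers varied widely between arrays, their mean running from -3.49 to 1.56 around that of the own wild types. With the mean of these markers as a covariate, 7 of the 10 genes were called in the 118Q line, as without it. Over all genes 285 were called with it and 280 without.

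In the 118Q knock-in cerebellum, 7 of the 10 genes were higher than in wild-type littermates by limma at an adjusted p below 0.05, and none was lower. Over all genes, 0.808% were called higher. The 10 genes were chosen with earlier results of these data known, so the share over all genes stands beside them as description only. The genes called were Trem2, Tyrobp, Cd68, Laptm5, Cd52, Cyba and Nckap1l, with rises between 0.46 and 1.03 on the log2 scale. In each of them the 3 knock-in arrays lay above the 3 wild-type arrays; groups that did not overlap, in either direction, were found for 18.1% of all genes. The median change of the 10 genes was 0.56, against 0.04 over all genes. Aif1, Cx3cr1 and Csf1r did not pass.

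**Figure D1:**
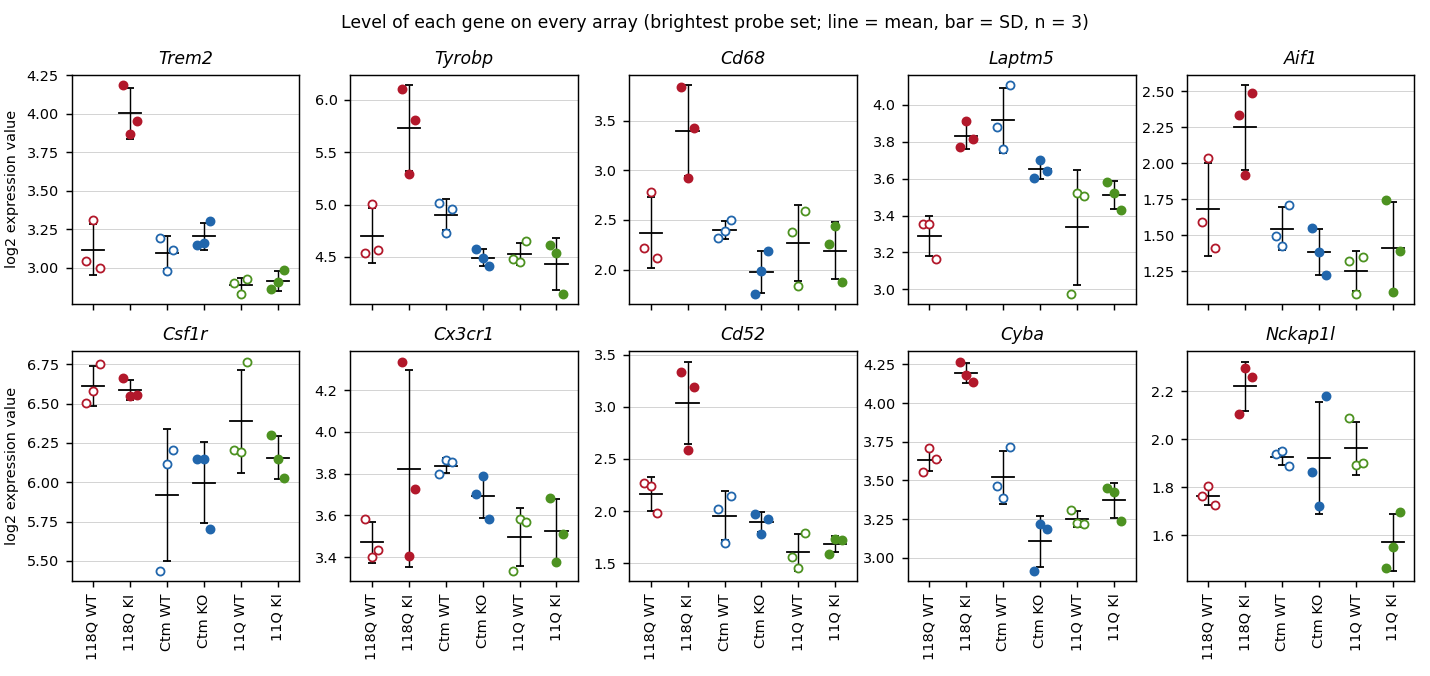
Log2 expression value of each of the 10 genes on every array, by its brightest probe set. Each panel has its own axis and each point is 1 array, open for wild type and filled for mutant. The group mean (line) and SD (bar, n = 3) are shown. Trem2 on the 118Q knock-in arrays runs from 3.87 to 4.19 and on the other 15 arrays ends at 3.31, while Csf1r on the 118Q knock-in arrays lies within the range of their wild types.

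Of the receptor and its adaptor, Trem2 was at 4.19, 3.87 and 3.95 on 118Q knock-in arrays 1, 2 and 3 and at 3.04, 3.31 and 3.00 on the wild-type arrays. All 3 knock-ins stood above every other array of the study, the next being 118Q wild-type array 2. The change was 0.89 (SE 0.11, n = 3 per group), a 1.85-fold difference, with an adjusted p of 0.00153 in limma. Tyrobp was at 6.10, 5.29 and 5.80 in knock-ins and at 4.54, 5.01 and 4.56 in wild types. Knock-in array 2 was the lowest of its group and wild-type array 2 the highest of its own. The change was 1.03 (SE 0.17), or 2.04-fold, with a limma adjusted p of 0.0131.

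Of the lysosomal genes, Cd68 was at 3.84, 2.93 and 3.43 in 118Q knock-ins and at 2.22, 2.78 and 2.12 in wild types. The groups did not overlap, but the spread was wide, and again knock-in array 2 and wild-type array 2 were closest. Its change of 1.03 (SE 0.23) had a limma adjusted p of 0.0345. Laptm5 was at 3.77, 3.91 and 3.81 against 3.35, 3.35 and 3.16, with a change of 0.54 (SE 0.13) and an adjusted p of 0.0442 in limma. Its highest level was not in this line: Ctm wild-type array 3 reached 4.11.

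Cd52 was at 3.34, 2.59 and 3.19 in 118Q knock-ins and at 2.27, 2.24 and 1.98 in wild types, a change of 0.87 (SE 0.16, limma adjusted p = 0.0198). Knock-in array 2 was again the lowest of the 3. Cyba, which encodes the p22phox chain that anchors the superoxide-making oxidase in membranes, was at 4.27, 4.18 and 4.14 against 3.56, 3.71 and 3.64. Here the 3 knock-in arrays were close together, with a change of 0.56 (SE 0.11, limma adjusted p = 0.0221). Nckap1l, the blood-cell form of a WAVE complex subunit, was dim, at 2.10, 2.30 and 2.26 against 1.76, 1.80 and 1.73. Its change was 0.46 (SE 0.11, limma adjusted p = 0.0485), near the threshold, and in this gene knock-in array 1 was the lowest. Trem2, Tyrobp, Cd68, Cd52 and Cyba, 5 of the 10 genes, had their 3 highest values of all 18 arrays on the 118Q knock-in arrays, as did 4.41% of all genes.

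The remaining genes were those whose groups overlapped in the 118Q line. Aif1, the gene of the common microglial stain Iba1, was at 2.34, 1.92 and 2.49 in knock-ins and at 1.59, 2.04 and 1.41 in wild types. Wild-type array 2 lay above knock-in array 2, and the change of 0.57 (SE 0.18) had a limma adjusted p of 0.115. Cx3cr1 was at 4.34, 3.41 and 3.73 against 3.58, 3.40 and 3.43, so that knock-in array 1 stood high and array 2 lay among the wild types, and the change of 0.35 (SE 0.16) had a limma adjusted p of 0.298. Csf1r, the brightest of the set, was at 6.66, 6.55 and 6.55 in knock-ins and at 6.50, 6.58 and 6.75 in wild types. Its change was -0.03 with a 95% interval from -0.41 to 0.36 (limma adjusted p = 0.971), so a change as large as that of Tyrobp lies outside the interval. The 3 knock-ins and 3 wild types of this line lay between 6.50 and 6.75, the Ctm arrays between 5.44 and 6.20 and the 11Q arrays between 6.02 and 6.77.

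**Figure D2:**
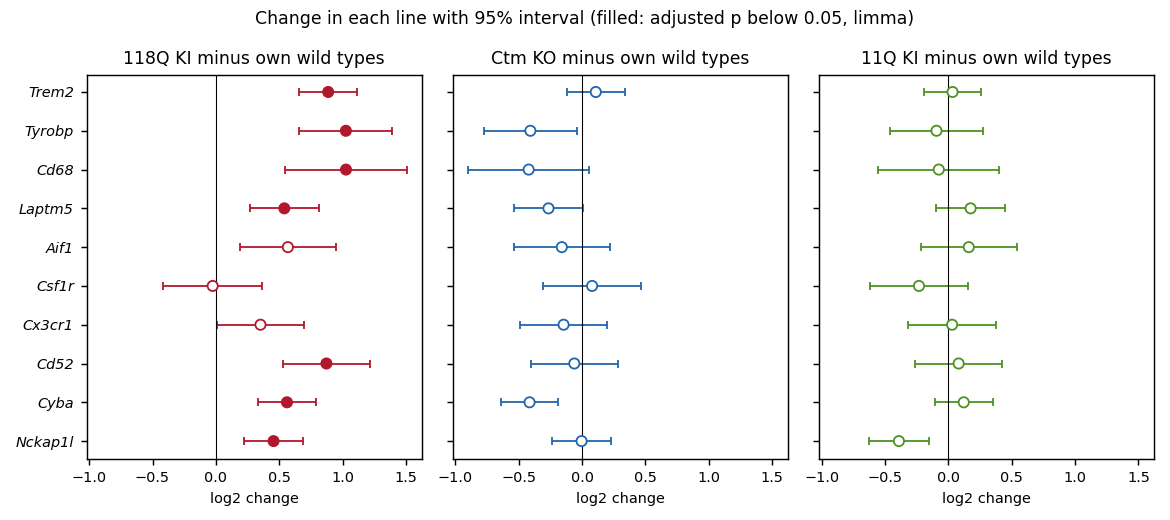
Log2 change of each gene, mutant minus wild-type littermates, in the 3 lines with its 95% interval from limma (n = 3 per group); filled points passed an adjusted p below 0.05. The 7 filled points are all in the 118Q line, and Csf1r at -0.03 is the only negative value there.

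How far these calls depended on 1 array differed between genes. Trem2 passed in all 6 fits that left out 1 array of the line, Tyrobp and Cd52 in 4 of 6, Cyba in 2 of 6, and Cd68, Laptm5 and Nckap1l in 1 of 6 each. Omitting wild-type array 1, 2 or 3 left 3, 5 or 1 of the 10 called, and omitting knock-in array 1, 2 or 3 left 6, 3 or 1. Over all genes these fits called from 2 (without wild-type array 3) to 941 (without knock-in array 1), against 280 with all arrays. With the RNA quality measure as a covariate Trem2 and Tyrobp passed, at 0.84 and 1.04 (limma adjusted p = 0.0191 and 0.0444). Over all genes 37 passed with this covariate, against 280 without it. The other 5 genes had changes of 0.92 (Cd68), 0.76 (Cd52), 0.54 (Cyba), 0.43 (Laptm5) and 0.43 (Nckap1l) in that fit, with limma adjusted p from 0.0747 to 0.158. Fitted on the 6 arrays of the line alone, 0 of 10 passed by limma, and 0 of 18193 genes did. The part of RNA quality in these rises was not tested beyond this covariate.

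Measured one probe set at a time, 4 of the 19 probe sets were called higher in the 118Q line by limma over all probe sets with a single symbol, where 0.266% were. They were the brightest probe sets of Trem2, Tyrobp, Cd52 and Cyba. Tyrobp, Cd68, Aif1, Cd52 and Cyba have 1 probe set each. The other 5 genes have several, and these differed. For Trem2, the dimmer probe set (1421226_at) averaged 1.25, below every array median, and its change was -0.07 (SE 0.15) against 0.89 on the brighter one (1421792_s_at). For Laptm5, the 5 probe sets gave 0.54 (1426025_s_at), 0.27 (1436905_x_at), -0.03 (1417721_s_at), -0.07 (1447742_at) and -0.01 (1459841_x_at), and none of them passed over all probe sets (limma adjusted p = 0.0663 for the first). With the mean of each gene's probe sets, Laptm5 was at 0.14 (limma adjusted p = 0.506) and Trem2 at 0.41 (adjusted p = 0.0576).

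The 3 Csf1r probe sets gave -0.03 (1419872_at), 0.14 (1419873_s_at) and 0.26 (1423593_a_at) in the 118Q line, all short of the threshold. On 1419873_s_at the knock-ins, at 4.85, 4.83 and 4.79, lay above the wild types, at 4.68, 4.74 and 4.62. For Nckap1l the dimmer probe set (1428787_at) was at 0.31, and the groups did not overlap on it either. For Cx3cr1 the dimmer probe set (1450019_at) averaged 0.89 and was at -0.24, opposite in sign to the brighter one. In all, 9 of 19 probe sets had knock-ins above wild types without overlap, against 10.4% of all probe sets.

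**Figure D3:**
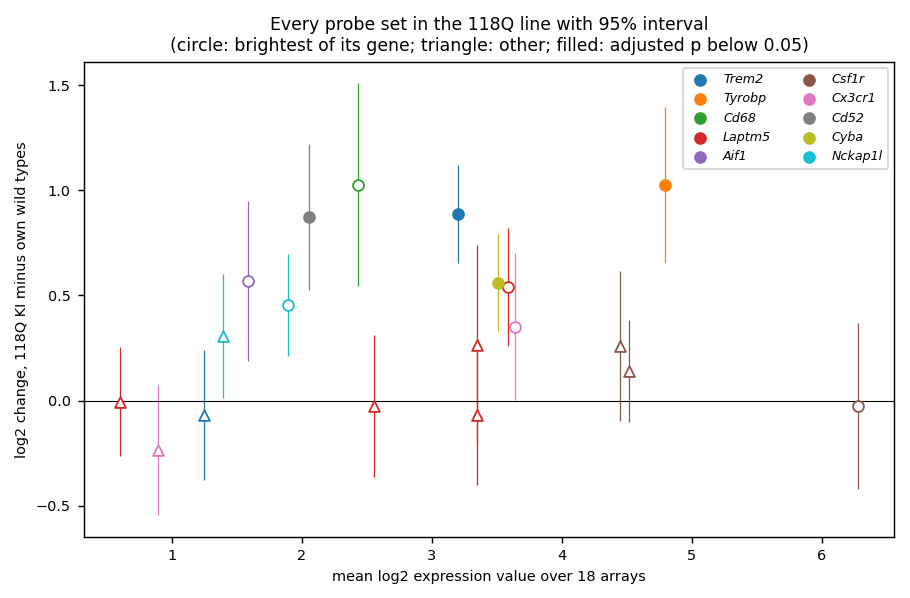
Log2 change in the 118Q line against the mean log2 value over 18 arrays for each of the 19 probe sets, with 95% intervals; circles are the brightest probe set of a gene, triangles the others, and filled symbols passed an adjusted p below 0.05 over all probe sets. The 4 filled symbols are circles, and the dimmer Trem2 probe set sits at a mean of 1.25 with a change of -0.07.

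In the Ctm knockout, 0 of 10 genes passed limma, where 0.929% of all genes did. At an unadjusted p below 0.05 there were 2, Tyrobp and Cyba, both lower, against 12% of all genes. The median of the 10 was -0.15, against -0.06 over all genes. Of the 10, 2 were positive and 8 negative, where 35.6% of all genes were positive. Cyba was at 2.92, 3.22 and 3.19 in knockouts and at 3.47, 3.39 and 3.71 in wild types, with a change of -0.41 (SE 0.11, limma adjusted p = 0.0781). Set against the 6 wild-type arrays of the 118Q and 11Q lines, a control added after seeing the data, the value was -0.34 (limma adjusted p = 0.0331), past the threshold. Such a value also holds any difference between the lines. Tyrobp was at 4.57, 4.49 and 4.41 against 5.01, 4.73 and 4.96, a change of -0.41 (SE 0.17, limma adjusted p = 0.350). Against the 6 wild-type arrays of the other lines its value was smaller, at -0.12, and did not pass. Cd68, at 1.76, 1.99 and 2.18 against 2.31, 2.38 and 2.50, gave -0.42 (SE 0.23, limma adjusted p = 0.484).

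Tyrobp, Cd68, Laptm5, Cx3cr1 and Cyba had all 3 Ctm knockouts below all 3 wild types, 5 of 10 genes, against 15.1% of all genes. For Laptm5 and Cx3cr1 the Ctm wild types were themselves the highest group of the study, at means of 3.92 and 3.84. With those 6 other wild-type arrays as control, the Ctm knockout values of these genes were 0.34 and 0.21, of opposite sign. Trem2 was at 3.15, 3.16 and 3.31 in knockouts and 3.19, 2.98 and 3.12 in wild types, with a change of 0.11 and a 95% interval from -0.12 to 0.33. Aif1, Csf1r, Cd52 and Nckap1l, whose groups also overlapped, were at -0.16, 0.08, -0.06 and -0.0045 (limma adjusted p from 0.772). By probe set, 7 of 19 had knockouts below wild types without overlap, where 12.4% of all probe sets did.

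In the 11Q knock-in, 0 of 10 genes passed limma, as did 0 of 18193 genes (0%). At an unadjusted p below 0.05 there was 1, Nckap1l, against 5.49% of all genes. It was at 1.46, 1.55 and 1.70 in knock-ins and at 2.09, 1.89 and 1.90 in wild types, a change of -0.39 (SE 0.11, limma adjusted p = 0.756). This was also the 1 gene of the set whose groups did not overlap, with knock-ins lower, as in 6.12% of all genes. Trem2 was at 2.86, 2.90 and 2.99 against 2.90, 2.83 and 2.92, and its change of 0.03 had a 95% interval from -0.19 to 0.26. Tyrobp was at 4.61, 4.54 and 4.15 against 4.48, 4.45 and 4.65, and its change of -0.09 had an interval from -0.46 to 0.27. The other 7 genes had changes from -0.23 (Csf1r) to 0.17 (Laptm5), with overlapping groups. The median of the 10 genes was 0.03, against -0.02 over all genes. By probe set, 2 of 19 had knock-ins below wild types without overlap, where 5.61% of all probe sets did.

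The difference between the 118Q and the Ctm effect was tested directly, and 6 of 10 genes passed limma, all with the larger value in the 118Q line, against 1.84% of all genes. The differences were 0.78 for Trem2 (SE 0.15, limma adjusted p = 0.0190), 1.44 for Tyrobp (SE 0.25, adjusted p = 0.0145), 1.45 for Cd68 (SE 0.32, adjusted p = 0.0280) and 0.98 for Cyba (SE 0.15, adjusted p = 0.0145). Laptm5 differed by 0.81 (SE 0.18, limma adjusted p = 0.0316) and Cd52 by 0.93 (SE 0.23, adjusted p = 0.0390). Leaving out Ctm wild-type arrays 2 and 3 left 1 array in that group, which was then assumed to vary like the other groups. The differences were then about as large, at 0.88, 1.55, 1.37, 0.92, 0.77 and 1.00 in this order, with larger errors (for Tyrobp an SE of 0.31 in place of 0.25). No calls are given for a fit with 1 array in a group. Left out one at a time, Ctm wild-type array 3 left 1 gene, Cyba, 118Q wild-type array 3 and Ctm knockout array 1 each left 2, and 118Q knock-in array 3 and Ctm knockout array 2 each left 3. Over all genes, in either direction, fits without 1 array called 24 to 1021 (75 without 118Q wild-type array 3), against 533 with all arrays. All these are values of each gene's brightest probe set. On the dimmer probe set of Trem2 the difference was -0.15. On those of Laptm5 it was 0.70 (1436905_x_at), -0.52 (1447742_at), -0.12 (1417721_s_at) and -0.06 (1459841_x_at).

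Between the 118Q and the 11Q effect 0 of 10 genes and 0 of 18193 passed limma (0%), while 6 of the 10 had an unadjusted p below 0.05, all larger in the 118Q line, against 10.3% of all genes. The differences were 0.85 for Trem2 and 1.12 for Tyrobp, with limma adjusted p of 0.142 and 0.202. Without 118Q knock-in array 1, Trem2 and Nckap1l passed, among 91 of all genes. Between the Ctm and the 11Q effect 0 of 10 passed limma, 0% of all genes did, and 3 of the 10 had an unadjusted p below 0.05, against 8.48% of all genes.

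Ordered by group mean, Trem2 was highest in the 118Q knock-in, at 4.00 ± 0.17 (SD, n = 3), without overlap with the next group. The next were the Ctm knockout at 3.20 ± 0.09, 118Q wild type at 3.12 ± 0.17, Ctm wild type at 3.10 ± 0.11, 11Q knock-in at 2.92 ± 0.07 and 11Q wild type at 2.88 ± 0.05 (SD, n = 3 each). Each of these 5 overlapped with its neighbour in the order. Tyrobp ran from 5.73 ± 0.41 in the 118Q knock-in through 4.90 ± 0.15 in Ctm wild type, 4.70 ± 0.26 in 118Q wild type, 4.53 ± 0.11 in 11Q wild type and 4.49 ± 0.08 in Ctm knockout to 4.43 ± 0.25 in 11Q knock-in (SD, n = 3 each), and apart from the first step all neighbours overlapped. The 118Q knock-in had the highest mean, without overlap with the group of the next lower mean, also for Cd68, Cd52, Cyba and Nckap1l. For Nckap1l it did overlap with another group: Ctm knockout array 3, at 2.18, lay above the lowest 118Q knock-in array, at 2.10.

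Purkinje cells, the output neurons of the cerebellar cortex, carry the Cav2.1 channel at high density, and their transcripts were set beside the microglia genes array by array. Of 16 Purkinje cell markers measured, 7 fell in the 118Q line by limma, where 0.731% of all genes did, and the median was -0.60. This list, too, was chosen with earlier results of these data known. The glutamate transporter gene Slc1a6 was at -1.11 and the kinase gene Stk17b at -0.96, with Dner, Ppp1r17, Calb1, Car8 and Itpka between -1.10 and -0.60, while Pcp2 was at 0.16 without passing. Averaged over the 16 markers, 118Q knock-in arrays 1, 2 and 3 stood at -0.26, -0.77 and -0.61 relative to the mean of their wild types. On these arrays the mean of the 10 microglia genes was 0.81, 0.41 and 0.65 above wild type. The array with the smallest Purkinje shortfall thus had the largest microglia value, and the array with the largest shortfall the smallest. Single genes were not uniform in this: Tyrobp, at 1.39, 0.59 and 1.10 above the wild-type mean, followed that order, Cyba was at 0.63, 0.55 and 0.50, and Nckap1l and Laptm5 were lowest on array 1. With 3 knock-in arrays no relation across arrays was tested. On the other 15 arrays the Purkinje mean lay between -0.16 and 0.09 and the microglia mean between -0.18 and 0.14.

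**Figure D4:**
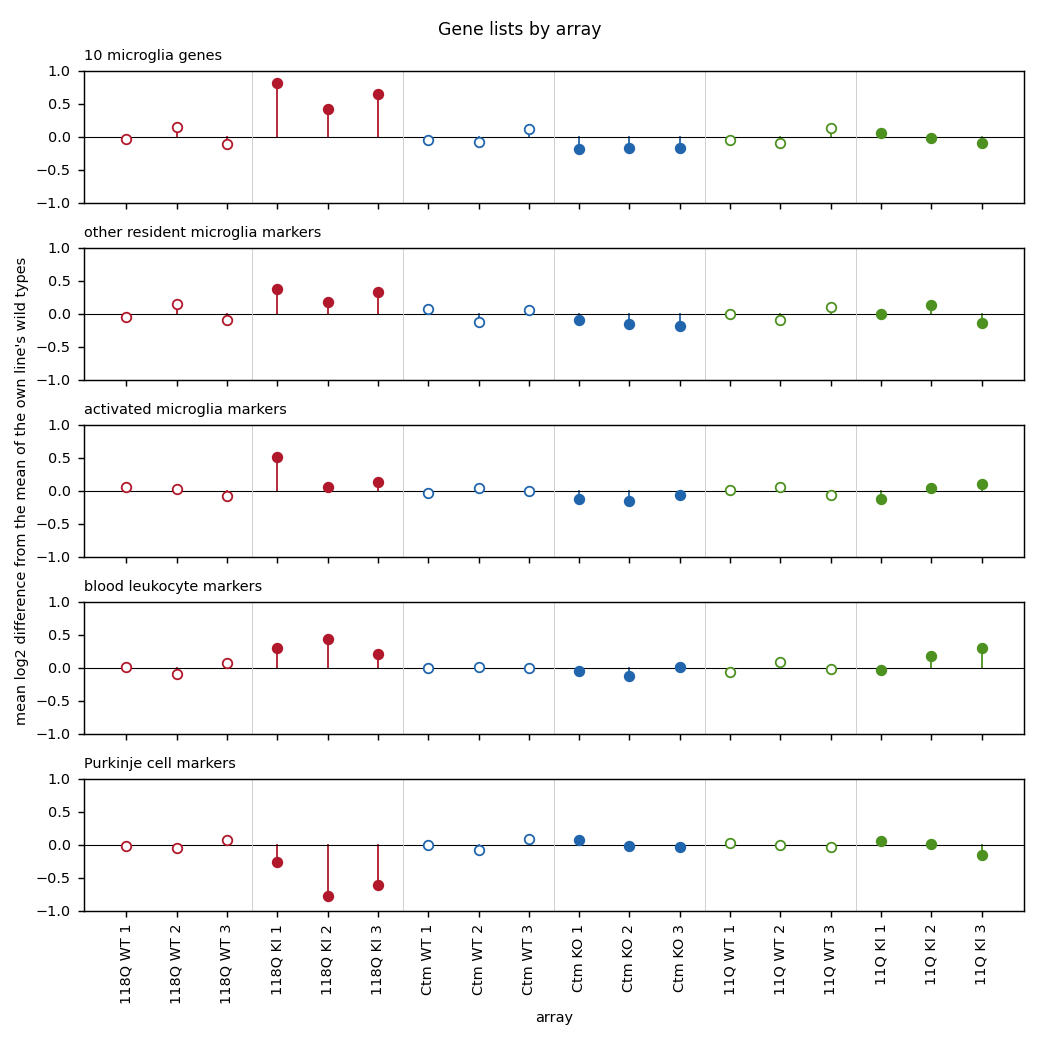
Mean log2 difference of each gene list from the mean of the own line's wild types, by array (open wild type, filled mutant). On 118Q knock-in arrays 1, 2 and 3 the 10 microglia genes are at 0.81, 0.41 and 0.65 and the Purkinje cell markers at -0.26, -0.77 and -0.61.

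Genes that act with this set were tested in the same fit, in which 16.1% of all genes had an unadjusted p below 0.05 and 58.7% a positive change in the 118Q line. Of 15 genes of Trem2-Tyrobp signalling and related immune receptors, 0 rose and 0 fell by limma, with a median of 0.08 and 3 at an unadjusted p below 0.05. The Fc receptor gene Fcgr3 was at 0.62 (limma adjusted p = 0.0880), the adaptor gene Lat2 at 0.27 and the kinase subunit gene Pik3r1 at 0.22. The kinase gene Syk, dim at a mean of 1.32, was at 0.08. Of the ligands, Csf1, Il34 and Cx3cl1 were at 0.03, -0.06 and 0.06 (limma adjusted p from 0.891). Of 5 other NADPH oxidase genes 0 passed limma and 1 had an unadjusted p below 0.05, with Cybb, the catalytic partner of Cyba, at 0.23 (limma adjusted p = 0.301), Ncf1 at 0.19 and Ncf4 at 0.18. Of 9 other WAVE complex genes 0 passed limma and 1 had an unadjusted p below 0.05, with Wasf1, Cyfip2 and Wasf3 at -0.26, -0.32 and -0.38. The 9 ran from -0.38 to 0.18, 3 positive and 6 negative. Wasf1 and Cyfip2 were bright, at means of 7.81 and 8.60, where Nckap1l averaged 1.89. In the Ctm line 1 of the 15 signalling genes fell, the adaptor gene Grb2, at -0.37 (SE 0.08, limma adjusted p = 0.0423), where 0.0934% of all genes fell. Its Ctm wild types were at 7.38 to 7.46 and the other 15 arrays at 6.95 to 7.17. Of the ligand, oxidase and WAVE complex genes 0 passed limma in the Ctm or the 11Q line, with 2 and 3 at an unadjusted p below 0.05.

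Other markers of microglia were mostly positive in the 118Q line without passing. Of 18 other resident markers 0 passed limma, 6 had an unadjusted p below 0.05, 15 were positive and the median was 0.28, against the 16.1% and 58.7% of all genes and their median of 0.04. The complement genes C1qb and C1qa were at 0.66 and 0.55, and Ly86, a partner of an endotoxin receptor homologue, at 0.62 (limma adjusted p from 0.0634 to 0.107). P2ry12 and Tmem119, markers of unstimulated microglia, were at 0.51 and 0.05. For P2ry12 the groups overlapped, with wild-type array 2 at 3.57 and knock-in array 1 at 3.37. It was also higher in the Ctm line, by 0.54, at 3.44, 3.12 and 3.32 in knockouts and 2.99, 2.60 and 2.66 in wild types. Of 18 markers of activated microglia 0 passed limma, 7 had an unadjusted p below 0.05, 14 were positive and the median was 0.23, beside the same shares of all genes. Clec7a, a fungal glucan receptor, was at 3.54, 1.58 and 2.07 on knock-in arrays 1, 2 and 3 and at 1.40, 1.48 and 1.24 in wild types. Its change of 1.03 (SE 0.30, limma adjusted p = 0.0944) thus rested on a high knock-in array 1. Lgals3 was at 0.62 and Apoe at 0.38 (limma adjusted p = 0.0855 and 0.117).

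Markers of other cells that make some of these genes were read beside them. Of 8 markers of macrophages at the brain's borders 0 passed limma in the 118Q line and 0 had an unadjusted p below 0.05, with a median of 0.04, F13a1 at 0.19, Mrc1 at -0.12 and Lyve1 at 0.10. All 8 stayed below the array median on all 18 arrays. Their mean was -0.10, 0.05 and 0.15 on knock-in arrays 1, 2 and 3, against -0.06 to 0.05 in the wild types. Of 12 blood leukocyte markers 0 passed limma, 4 had an unadjusted p below 0.05 and 11 were positive, with a median of 0.11, beside 16.1% and 58.7% of all genes. Their mean was 0.29, 0.44 and 0.21 on the knock-in arrays, against -0.09 to 0.08 in the wild types. On the 11Q knock-in arrays, where none of the 10 genes passed, it was -0.03, 0.17 and 0.29. The neutrophil gene S100a9 was at 1.14 (SE 0.29, limma adjusted p = 0.0532), S100a8 at 0.94 (adjusted p = 0.105) and the B cell gene Cd79a at 0.57 (adjusted p = 0.0505), while the monocyte receptor gene Ccr2 was at 0.05 and the T cell gene Cd3e at 0.13. In the difference between the 118Q and the Ctm effect, S100a8 (1.55), C1qb (1.10), C1qa (1.01), Fcgr3 (1.01) and Lgals3 (0.96) passed limma. The leukocyte mean was highest on knock-in array 2, where the mean of the 10 genes was lowest. No marker stood at 0, a level that has no fixed meaning on this scale, and the part of leukocyte RNA in the rises was not tested.

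**Figure D5:**
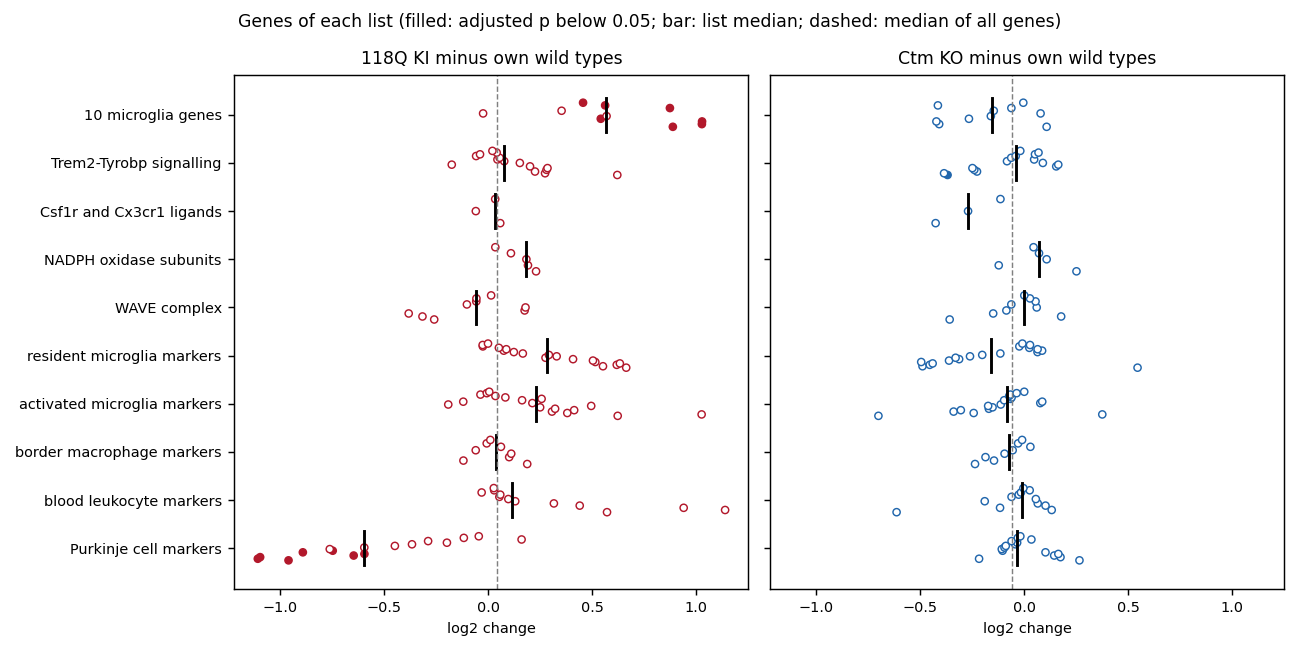
Log2 change of every measured gene of each list in the 118Q line (left) and the Ctm line (right); filled points passed an adjusted p below 0.05, bars are list medians and the dashed line is the median of all genes. In the 118Q line the median is 0.56 for the 10 microglia genes, 0.28 for other resident and 0.23 for activated microglia markers, and -0.60 for Purkinje cell markers.

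The 10 genes did not all move as 1 unit. Over the 18 arrays, Tyrobp had a Pearson r of 0.96 with the mean of the other 9, Cd52 0.94, Trem2 0.91, Cd68 0.90, Aif1 0.88 and Cyba 0.87. Nckap1l, Cx3cr1, Laptm5 and Csf1r had 0.53, 0.48, 0.40 and 0.36. Subtracting each group's mean leaves differences between arrays of 1 group. After this, r was 0.82 for Tyrobp, 0.75 for Cd68, 0.71 for Cd52 and 0.60 for Aif1 and for Trem2. It was 0.37 for Cyba, 0.12 for Laptm5 and -0.42 for Nckap1l. These values are descriptions over 18 arrays, and the genes on each array share its RNA sample and normalisation.

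Among 8907 other genes of the brighter part of the table, those with the highest r with the mean of the 10 over 18 arrays were Tppp3 (0.94), C1qb (0.94), Gstm5 (0.94), Dbndd2 (0.93), C1qa (0.92), Dedd2 (0.90), Psmb1 (0.89) and Ly86 (0.89). Of these 8, 3 were in the list of resident microglia markers. Tppp3, a tubulin-binding protein gene, was at 0.58 in the 118Q, -0.23 in the Ctm and -0.15 in the 11Q line. After group means were subtracted, the 8 highest were Zwint, Cck, Babam2, Arpc1a, Ndufs3, Cpsf2, Psmd8 and Lancl1, with r from 0.85 to 0.90, and 0 of them were in a microglia list.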

How the data were processed

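Cerebellar total RNA of 18 samples was hybridised to Affymetrix arrays, 1 per sample. The authors deposited log2 values made with RMA, per the submitters' processing notes; they run from -0.256 to 12.2, and depth has no counterpart here beyond the number of arrays. Of 45101 probe sets, 64 controls and 10092 with several symbols or none were left out. The brightest probe set by mean stood for each gene. Entrez identifiers of all 10 genes matched RefSeq.

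Groups came from the sample titles. limma 3.58.1 in R 4.3.3 was fitted with 1 mean per group over 18 arrays (12 residual and 5.98 prior degrees of freedom), with two-sided moderated tests and Benjamini-Hochberg adjustment over all genes, or all probe sets, at 0.05. The fit was also run on simulated data with independent normal noise for each gene, which holds no shifts shared between the genes of an array. The 10 genes and 13 other lists (132 of 150 entries measured) were chosen with earlier results of these data known. From each list the genes past the threshold in a line are named, and otherwise up to 3 with the smallest p in the 118Q line. Syk, P2ry12, Tmem119, Pcp2, Gabra6, Ccr2, Cd3e and the resident markers named only for their level were added after their values were seen. Red blood cell, granule cell, astrocyte and choroid plexus lists had medians of 0.18, -0.03, 0.03 and -0.12 there, with 0 passing limma and 2 astrocyte genes at an unadjusted p below 0.05. Alternatives covered probe set summary, dim genes, variance settings, normalisation, covariates, replicate number, controls and single arrays.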

Additional observations from a re-analysis of the deposited data

Results flagged for a closer look

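The difference between the 118Q and the Ctm effect, each being mutant minus own wild types, passed limma's test of that difference for 6 of the 10 genes: Trem2 at 0.78, Tyrobp at 1.44, Cd68 at 1.45, Laptm5 at 0.81, Cd52 at 0.93 and Cyba at 0.98 on the log2 scale (n = 3 per group). These are values of each gene's brightest probe set. Dimmer probe sets of Laptm5 differed by 0.70, -0.52, -0.12 and -0.06, and that of Trem2 by -0.15. By the brightest ones, in Tyrobp, Cd68, Laptm5 and Cyba the 118Q knock-ins lay above and the Ctm knockouts below their wild types without overlap. For Trem2 and Cd52 the Ctm values were 0.11 and -0.06, with overlapping groups. With Ctm wild-type arrays 2 and 3 left out, an alternative chosen after seeing the data, that group held 1 array. The differences were then 0.88, 1.55, 1.37, 0.77, 1.00 and 0.92 in the order given, about as large, with larger errors. No calls are given for that fit.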

How the results depend on the processing

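Of 556 values of single genes under alternatives, 31 had the opposite sign, none of them of a called change. Some alternatives keep the estimate and could not turn a sign. These were leaving out dim genes, the replicate blocks, the fold change limit, the comparison's arrays alone and the variance setting without array weights. Testing each probe set singly counted only the brightest here. Dimmer ones in the 118Q line were at -0.07 for Trem2 and 0.31 for Nckap1l. Those of Laptm5 were at 0.27, -0.03, -0.07 and -0.01. In the 118Q line, 7 of 10 genes were called; the number was 4 when probe sets of a gene were averaged, 4 with every probe set tested by itself, 1 without the dimmer 50% of genes (where of the 10 only Tyrobp and Csf1r remained), 2 with the RNA quality covariate, 4 at a fold change of at least 1.5, 0 on the arrays of the comparison alone, and 1 to 6 without 1 array. With the replicate number as a block it was 5 (without Laptm5 and Nckap1l), and 0 in the Ctm and 0 in the 11Q line; with the replicate block within each line, added after seeing the data, it was 2 (Trem2 and Cd52). The labels do not say whether same-numbered arrays of a line belong together. Their deviations from group means correlated at -0.20 to 0.23 across genes. For differently numbered arrays this was -0.29 to 0.27, about the same range, so the correlations cannot decide it. The 4 called probe sets became 7 with array weights, 0 with the RNA quality covariate, 0 on the 6 arrays alone, 3 with the replicate block and 0 to 6 without 1 array. In the fits without 1 array, 1 to 1078 of all probe sets were called. In the Ctm line 0 genes became 1, Cyba, with array weights and with the 6 wild types of the 118Q and 11Q lines as control. Of the 6 differences between the 118Q and Ctm effects (533), 1 remained without dim genes (1061) and 2 with the RNA quality covariate (67). On the arrays of the comparison 3 remained (81), with the replicate block 6 (433), and with that block within each line 2 (105), Tyrobp and Cyba. Without 1 array, 1 to 6 remained (24 to 1021). Leaving out Ctm wild-type arrays 2 and 3 left 1 array in that group, and no calls are given for it. Between the 118Q and 11Q effects 0 became 3 with array weights (75) and 0 to 2 without 1 array (0 to 91). The cause was not tested.

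Signs turned as follows. With averaged probe sets, Csf1r in the 118Q line was at 0.13, Nckap1l in Ctm at 0.0056 and Trem2 in 11Q at -0.033. With array weights, Cd68 in 11Q was at 0.059, and with the choroid plexus covariate Nckap1l in Ctm was at 0.016 and Aif1 in 11Q at -0.053. With the wild types of the 118Q and 11Q lines as control, Csf1r in 118Q was at 0.087; in 11Q Trem2 was at -0.084, Aif1 at -0.053, Cd52 at -0.20 and Cyba at -0.072; and in Ctm Laptm5 was at 0.34, Csf1r at -0.50, Cx3cr1 at 0.21, Cd52 at 0.0094 and Nckap1l at 0.059. Without 1 array, the 11Q values ran from -0.0029 to 0.061 for Trem2, -0.18 to 0.047 for Tyrobp, -0.29 to 0.083 for Cd68, -0.0052 to 0.27 for Laptm5, -0.0039 to 0.31 for Aif1 and -0.051 to 0.10 for Cx3cr1. Csf1r ran from -0.080 to 0.045 in 118Q and from -0.16 to 0.23 in Ctm, where Cd52 ran from -0.19 to 0.034 and Nckap1l from -0.13 to 0.095. Cd68, Cd52, Aif1 and Nckap1l lay near or below the array median on most arrays and the deposited values hold no detection calls, which limits how far small changes in them can be read.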
